A study of Mus with 10 samples.

Results

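Mouse skin labelled with a 7-day gap after PUVA was compared with skin labelled with a 3-day gap, gene by gene, on 8 of the 10 arrays of the series: the 4 arrays titled for a 7-day gap and the 4 titled for a 3-day gap. PUVA is topical psoralen followed by ultraviolet A light. The animals were female BALB/c mice aged 7 to 8 weeks. Both groups carried the same pretreatment, UVA at 0.25 J/cm2 given 2 times per week for 2 weeks, and differed in the labelled gap of 3 or 7 days. The series was built around imiquimod dermatitis, and its treatment text places imiquimod, a Toll-like receptor agonist cream, after the gap. Whether the skin on these arrays had been given the cream is not stated in the labels, nor are the time of collection and the number of animals behind an array. In what follows, "at 3 days" and "at 7 days" mean the labelled gap, not a known time of sampling. The 2 control arrays, labelled as having no gap, served as no reference here; their values are given beside a few genes for orientation. All 22180 genes with a probe set assigned to 1 gene symbol were examined. Replicate numbers below only name an array.

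Psoralen intercalates into DNA and, once excited by UVA, binds pyrimidines covalently and can crosslink both strands. Skin treated this way passes through phases of inflammation and repair in which keratinocytes, dermal fibroblasts and resident or recruited leukocytes each take part. Fibroblasts lay down the collagens and elastic fibres of the dermis, the epidermis renews itself from basal cells that end as cornified cells, and sebaceous glands secrete waxes and other lipids into the hair canal.

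On the log2 scale of the deposited values, the median of an array was 5.83 to 5.86 and its lower quartile 4.17 to 4.23. The correlation across genes ran from 0.990 to 0.995 within the 3-day group, from 0.994 to 0.995 within the 7-day group and from 0.988 to 0.995 between them; genes are not independent replicates. 3-day replicate 2 stood apart on the first principal component, at 31.3 against -20.4 to 9.50 for the others, and 3-day replicate 3 on the second, at 27.1 against -16.4 to 7.80. Values with either array left out are given for several lists below. Of 40 cell type markers, 33 were measured. Those of keratinocytes and fibroblasts, such as Krt14, Krt10, Col1a2 and Dcn, lay at or above percentile 93.3 of all genes on each of the 8 arrays, and so did the muscle genes Acta1, Ckm and Myh4. Keratins of the growing hair follicle lay low on all 8 arrays: Krt27 between 3.81 and 4.64, Krt71 between 3.85 and 5.60 and Krt31 between 4.06 and 4.68. The arrays thus read epidermis, dermis and underlying muscle, with low signal from growing hair.

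Few genes passed the test across all genes. With limma's moderated test and Benjamini-Hochberg adjustment, 1 of 22180 genes passed an adjusted p of 0.05, which is 0.00451% of those tested: Hamp, higher at 7 days. No gene was lower at that threshold. At an unadjusted p under 0.05, 1173 genes were higher at 7 days, 5.29% of all, and 1000 were lower, 4.51%. With each array left out, the former count ran from 820 to 1577 and the latter from 644 (without 7-day replicate 2) to 1250. Both directions together gave 2173 genes on all arrays, against 1109 expected at that threshold if no gene differed. Genes are not independent, and that excess was not tested. In 655 genes (2.95%) every 7-day array lay above every 3-day array, and in 506 (2.28%) every 7-day array lay below. These percentages are the background for the counts in gene lists below on all arrays, where "without overlap" means 4 arrays against 4. Counts given with an array left out compare fewer arrays, which separate more easily. These percentages are no background for such counts. Differences are 7-day minus 3-day on the log2 scale. Over all genes the median difference was 0.01, the quartiles were -0.08 and 0.09, and 53.2% of genes had a positive difference. The labels do not say that the samples were separate animals, so p-values reflect only how these samples scattered, and that scatter may be technical.

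Hamp, the gene for hepcidin, the peptide hormone that limits iron export from cells, was higher with the 7-day gap, the difference that passed the test. Its values were 4.09, 3.44, 3.41 and 3.42 on the 3-day arrays and 6.83, 6.20, 8.02 and 7.67 on the 7-day arrays. The groups lay far apart, and every 3-day value was below the lower quartile of its array. The difference was 3.59 ± 0.36 on the log2 scale (SE, n = 4 and 4) with a limma adjusted p of 0.046. No fold is given, since the 3-day signal was that low and the table holds no measure of background. The 2 control arrays read 8.82 and 8.10. Hamp2, its close paralog, read 6.34, 7.25, 6.80 and 6.36 at 3 days and 8.01, 8.21, 8.66 and 8.77 at 7 days, again without overlap. That difference was 1.72 ± 0.23 with an adjusted p of 0.103, which missed the threshold. The sequences of the paralogs are close, and signal shared between their probe sets cannot be told apart. Usf2, the neighbour of both in RefSeq gene order, differed by 0.03 ± 0.10. The Hamp call was lost without 3-day replicate 2 (adjusted p 0.0532), 3-day replicate 4 (0.141), 7-day replicate 1 (0.175), 7-day replicate 3 (0.0922) or 7-day replicate 4 (0.125), and after quantile normalization (0.053). Its difference stayed between 3.31 and 3.92 when each array was left out.

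Iron genes as a list lay on both sides. Of 31 genes of iron handling, 12 were higher and 19 lower, with a median of -0.03, and 2 were higher without overlap, the hepcidin pair. Leaving out each array moved the median between -0.05 (without 3-day replicate 3) and -0.0061 (without 3-day replicate 1). The number higher without overlap was then 3 without 3-day replicate 1, 2 or 3 and 4 without 7-day replicate 1. The number lower without overlap, 1 on all arrays, was 3 without 3-day replicate 1, 2 without 3-day replicate 2 or 4 and 4 without 7-day replicate 4. Hfe, an upstream activator of hepcidin, lay lower without overlap, from 7.42 to 7.56 at 3 days against 7.07 to 7.38 at 7 days (difference -0.30 ± 0.09, adjusted p 0.337). Haptoglobin (Hp), which binds free haemoglobin, ranged from 8.53 to 10.15 at 3 days and from 7.96 to 8.95 at 7 days, with overlap and a difference of -0.94 ± 0.33.

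**Figure D1:**
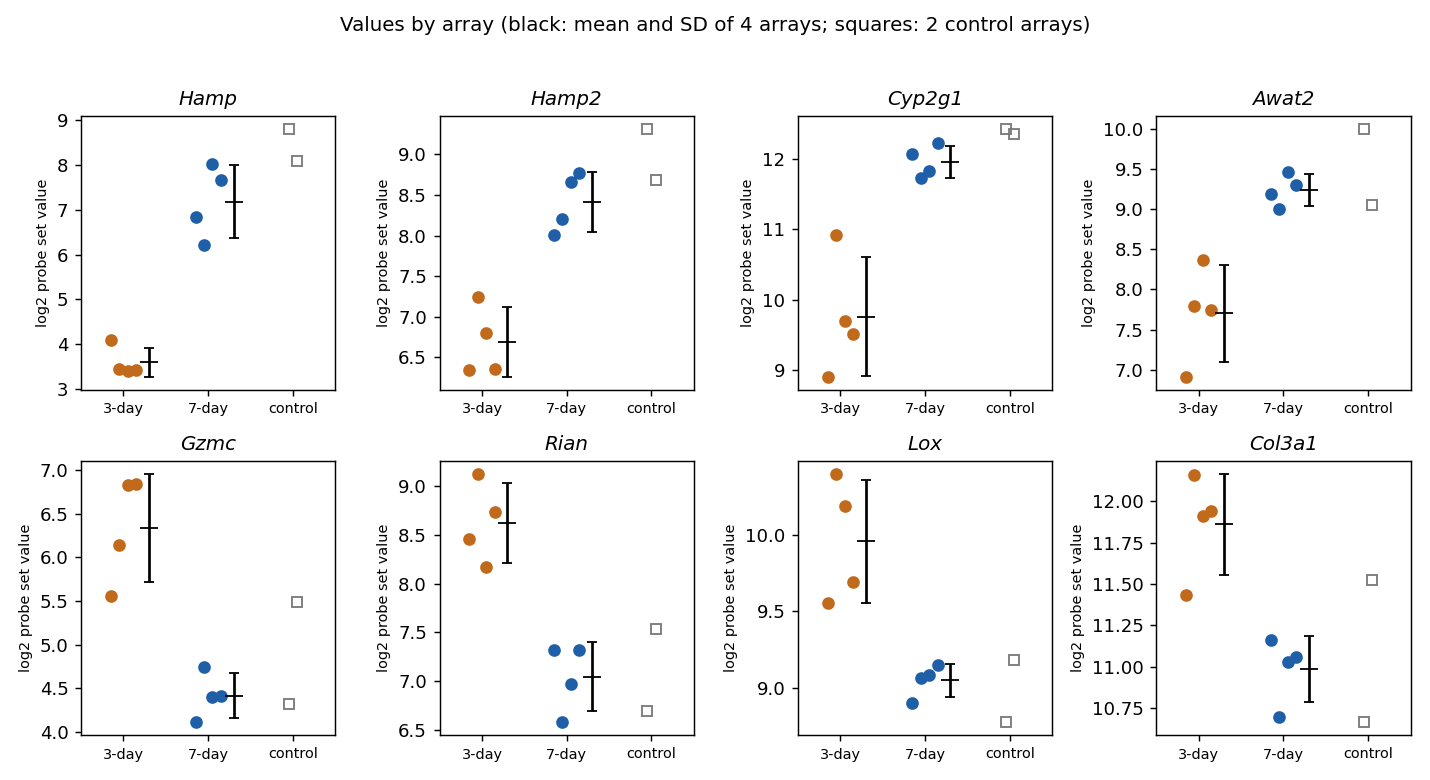
Deposited log2 values of 8 genes on the 4 arrays with a 3-day gap, the 4 with a 7-day gap and the 2 control arrays, with the mean and SD of each PUVA group in black. Hamp sits between 3.41 and 4.09 at 3 days and between 6.20 and 8.02 at 7 days, and in all 8 genes the arrays of the 3-day and 7-day gaps do not overlap.

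Beyond Hamp, the genes with the smallest p in each direction without overlap are described by value, since none passed the adjusted threshold. Cyp2g1, a cytochrome P450, read 8.90, 10.92, 9.70 and 9.51 at 3 days and 12.07, 11.73, 11.83 and 12.23 at 7 days. The 7-day arrays were tight and the 3-day arrays scattered, and the difference was 2.21 ± 0.35 (adjusted p 0.135). Awat2, which makes the wax esters of sebum, read 6.90, 7.79, 8.37 and 7.74 against 9.20, 9.0, 9.47 and 9.30, a difference of 1.54 ± 0.26 (adjusted p 0.135). 3-day replicate 1 was the lowest for both genes.

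The other genes higher at 7 days in this group had smaller differences. Cadps2, a factor of dense-core vesicle release, was at 5.17 to 5.35 against 5.82 to 5.92, a difference of 0.56 ± 0.07 with an adjusted p of 0.0593. Sox15, a transcription factor, differed by 0.64 ± 0.11 and Cytl1, a secreted cytokine-like protein, by 0.70 ± 0.12. Fbp2, the muscle form of fructose bisphosphatase, differed by 0.56 ± 0.09, Fam110c by 0.55 ± 0.09 and Sc5d, a late enzyme of cholesterol synthesis, by 0.53 ± 0.09. Adjusted p was 0.135 for each of Sox15, Cytl1, Fbp2, Fam110c and Sc5d.

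On the lower side, the 10 genes named by the same rule were led by Rian and Gzmc. Gzmc, a granzyme of cytotoxic cells, read 5.55, 6.14, 6.83 and 6.84 at 3 days and 4.11, 4.74, 4.39 and 4.41 at 7 days, a difference of -1.93 ± 0.27 (adjusted p 0.116). Il2rb, a receptor chain for interleukins 2 and 15, was at 6.56 to 6.75 against 5.85 to 6.31, a difference of -0.63 ± 0.11 (adjusted p 0.135). Aldh1l2, a mitochondrial enzyme of folate metabolism, differed by -0.79 ± 0.12, C1qtnf6 by -0.92 ± 0.15, Cercam by -0.60 ± 0.10 and Lrrc9 by -0.58 ± 0.09. Col5a1, Col6a2, Eln and the noncoding RNA Rian completed the 10 and are described with their families. Gene models and small RNAs were passed over in these rankings, 7 on the higher side and 9 on the lower.

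Elastic fibre genes were lower at 7 days throughout the list. All 19 measured genes of elastic fibres and their crosslinking had a negative difference, with a median of -0.34 against 0.01 over all genes, and 6 were lower without overlap (background 2.28%). Eln, the elastin precursor, read 8.76, 8.94, 9.11 and 9.23 at 3 days and 8.34, 8.35, 8.32 and 8.57 at 7 days. The difference was -0.62 ± 0.11 with an adjusted p of 0.136. Lox, the oxidase that starts the crosslinking of elastin and collagen, read 9.55, 10.40, 10.19 and 9.69 against 8.90, 9.06, 9.09 and 9.15, a difference of -0.91 ± 0.17 (adjusted p 0.186). In both genes the lowest 3-day array still lay above the highest 7-day array. The microfibril genes Fbn2 and Mfap2 differed by -0.72 ± 0.20 and -0.58 ± 0.15, and the fibulin Fbln2 by -0.46 ± 0.09, each without overlap. Loxl1, a second crosslinking oxidase, differed by -0.61 ± 0.21 with overlap. The list mean ranged from 8.66 to 8.97 at 3 days and from 8.22 to 8.56 at 7 days. When each array was left out in turn, 17 to 19 of the 19 were lower; the number without overlap was 6 or 7, except for 11 without 3-day replicate 1.

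Most collagen genes were lower at 7 days, among them chains of the fibrils and beaded filaments of the dermis. Of 43 collagen genes, 29 were lower and 14 higher, with a median of -0.19; 12 were lower and 1 was higher without overlap. Col3a1, a major fibrillar collagen of young or healing dermis, read 11.43, 12.16, 11.91 and 11.94 at 3 days and 11.16, 10.70, 11.03 and 11.06 at 7 days. The difference was -0.87 ± 0.15 (adjusted p 0.143). Col5a1 and Col5a2, which form the core of collagen I fibrils, differed by -0.92 ± 0.16 and -0.78 ± 0.16. The chains of collagen VI, a beaded-filament collagen, differed by -0.76 ± 0.13 for Col6a2 and -0.78 ± 0.17 for Col6a3, each without overlap. Col1a1, the main chain of type I collagen, had a similar difference of -0.90 ± 0.25, but its arrays overlapped narrowly: 11.67, 12.41, 12.22 and 11.99 against 10.99, 10.51, 11.52 and 11.68. Col4a1, a chain of basement membranes including those of vessels, differed by -0.55 ± 0.13. The exception without overlap was Col4a6, another basement membrane chain, at 4.92 to 5.02 against 5.05 to 5.23, a difference of 0.14 ± 0.07. The collagen median ran from -0.21 without 7-day replicate 4 to -0.14 without 3-day replicate 2. No collagen passed the adjusted threshold on all 8 arrays. Without 3-day replicate 1, the lowest 3-day array for Col3a1, Col5a2 and Col6a2, 15 genes of the whole array passed it on the lower side, those 3 collagens among them, and 18 collagens were lower without overlap.

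**Figure D2:**
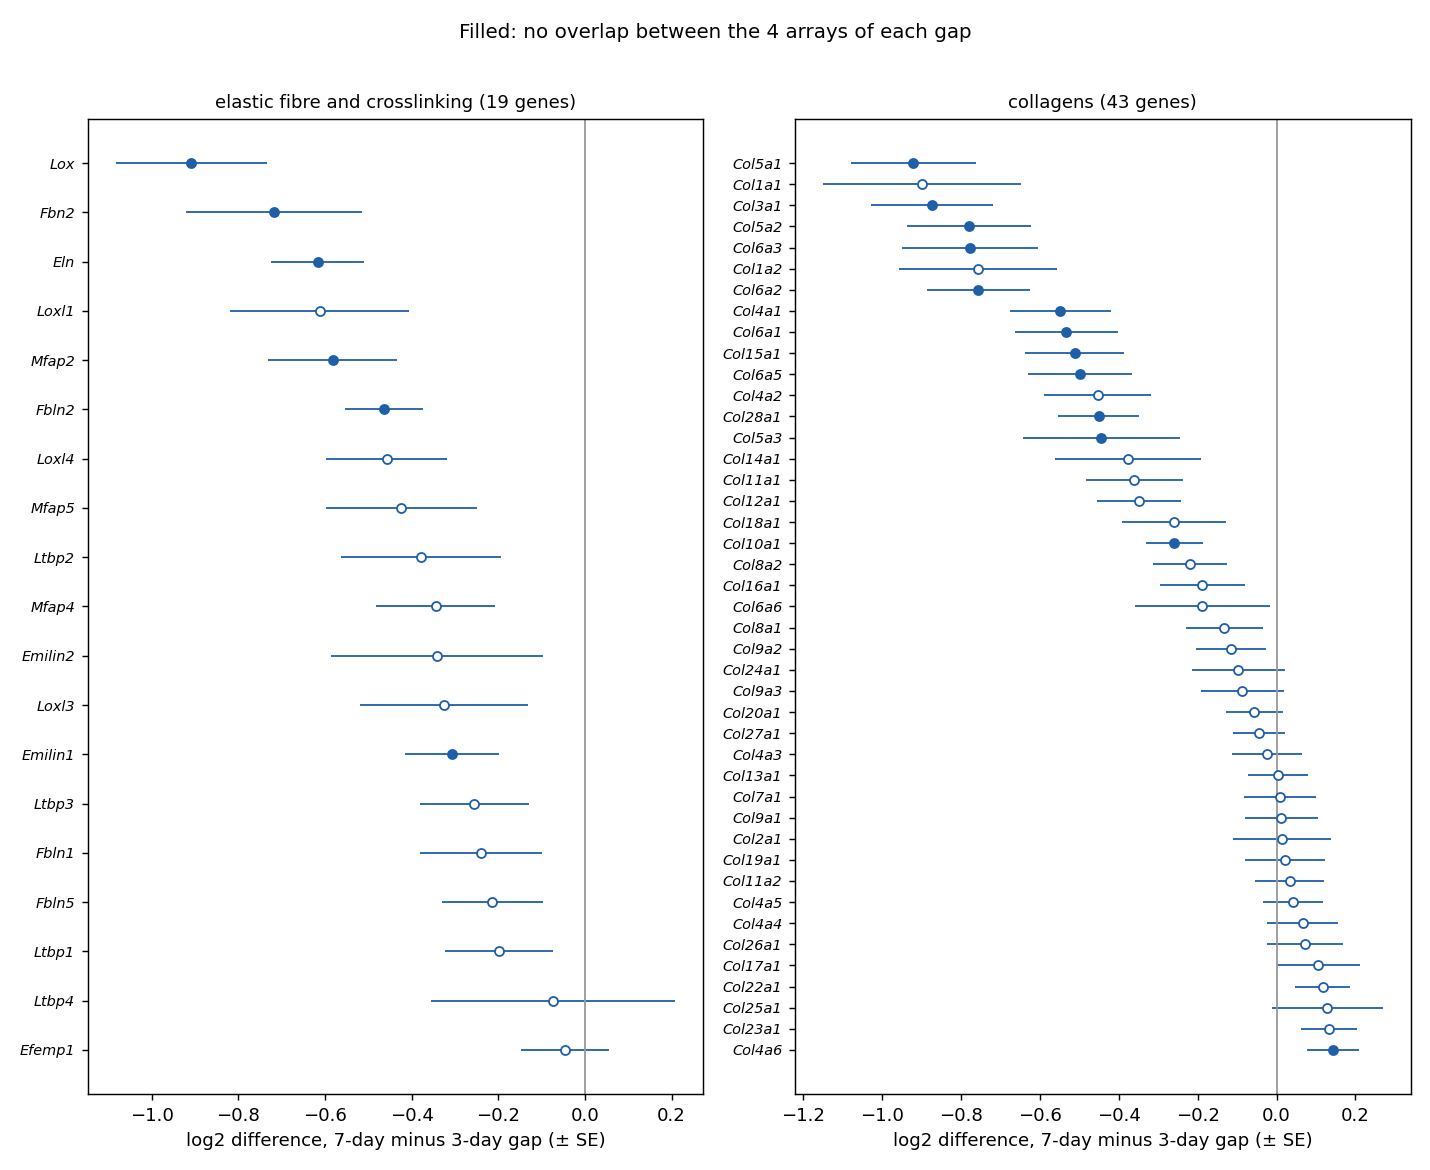
Log2 difference (7-day minus 3-day, with its SE) of all 19 elastic fibre and crosslinking genes and all 43 collagen genes measured, in order of size. All 19 of the first list lie below 0, while the collagens run from -0.92 (Col5a1) to 0.14 (Col4a6).

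Genes that mark fibroblasts or fold and process collagen lay on the same side. Of 32 fibroblast and proteoglycan genes, 30 were lower, with a median of -0.27 and 5 without overlap. Tnc, a matrix protein of healing wounds, read 7.62, 7.56, 8.27 and 8.04 at 3 days and 6.97, 7.13, 7.07 and 6.77 at 7 days. The difference was -0.89 ± 0.16 (adjusted p 0.146). Vcan, a large proteoglycan of provisional matrix, differed by -0.84 ± 0.20, Aspn, a small proteoglycan, by -0.48 ± 0.12, and Sparc, a collagen-binding secreted protein, by -0.39 ± 0.09, each without overlap. A list of 30 genes for collagen modification, folding and secretion, drawn up after the values were seen, had 28 lower, a median of -0.37 and 9 without overlap. Among them were Serpinh1, the collagen chaperone (-0.57 ± 0.17, with overlap), P3h1, a prolyl hydroxylase (-0.61 ± 0.15), Kdelr3, a retrieval receptor of the secretory pathway (-0.94 ± 0.19), and Tram2 (-0.59 ± 0.13). Without 3-day replicate 1 the numbers without overlap were 11 of 32 and 17 of 30, and without 7-day replicate 1 the second was 15. Without 3-day replicate 2 the medians of these lists were -0.21 and -0.25, with 30 of 32 and 25 of 30 lower.

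Most enzymes that degrade matrix, and their inhibitors, were lower as well. Of 25 matrix metalloproteinase and inhibitor genes, 20 were lower, with a median of -0.20 and 3 without overlap. Timp1, an inhibitor, read 5.57, 6.31, 5.63 and 5.67 against 5.16, 5.02, 5.24 and 5.10, a difference of -0.67 ± 0.15. Mmp13, a collagenase, read 4.99, 4.85, 5.19 and 4.15 against 3.47, 4.12, 3.94 and 3.88, a difference of -0.94 ± 0.22. The number without overlap was 6 without 3-day replicate 1 or 7-day replicate 1 and 5 without 7-day replicate 4. The median of this list ran from -0.29 without 3-day replicate 1 to -0.15 without 3-day replicate 3. The 7-day values of Mmp13 were under the lower quartiles of their arrays, and 3-day replicate 4 lay close to them. Of 25 TGF-beta ligands, receptors and targets 21 were lower, but with a median of only -0.08 and 3 without overlap, among them Tnc and Bmp1, the procollagen peptidase (-0.48 ± 0.13). Without 3-day replicate 1 that median was -0.14 and 7 did not overlap. In whole skin, fewer cells of a type and less RNA per cell cannot be told apart. Skeletal muscle genes lay the other way, 29 of 33 higher with a median of 0.14 and 1 without overlap, Mybpc1, a muscle myosin-binding protein (0.31 ± 0.08). Their list mean ranged from 10.02 to 10.52 at 3 days and from 10.29 to 10.45 at 7 days, with overlap. Their median was 0.25 without 3-day replicate 1, with 12 without overlap, 0.07 without 3-day replicate 2 and 0.08 without 3-day replicate 3, and 4 did not overlap without 7-day replicate 4. The part of muscle in the matrix differences was not tested.

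RNAs of the imprinted Dlk1-Dio3 region were lower at 7 days along nearly its whole length. The region holds Dlk1 and Dio3, expressed from the paternal copy, and between them noncoding RNAs expressed from the maternal copy: Meg3, Rian, which hosts small nucleolar RNAs, and a long series of microRNA genes. Members were taken by RefSeq order between Dlk1 and Dio3 after the values were seen. Of 55 measured, 53 were lower, with a median of -0.41, and 21 were lower without overlap. Of the 55, 43 were microRNAs and 6 small nucleolar RNAs. Only 28 of the 55 had a mean of at least 5, so many members were dim. Of the 13 genes anywhere that were lower by more than 1 log2 unit without overlap, 10 lay in the region.

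Rian read 8.46, 9.13, 8.17 and 8.74 at 3 days and 7.32, 6.58, 6.97 and 7.32 at 7 days. The difference was -1.58 ± 0.22 (adjusted p 0.116). The small nucleolar RNAs AF357425 and DQ267101, which lie inside Rian in the RefSeq annotation, differed by -1.36 ± 0.22 and -1.56 ± 0.28. They can share transcript with Rian, so these are not separate observations. Mir453 read 7.75, 8.53, 7.77 and 8.22 against 6.57, 6.32, 6.71 and 6.58, and Mir377 read 4.19, 4.51, 3.95 and 4.24 against 3.06, 3.03, 2.96 and 3.36. Their differences were -1.52 ± 0.17 and -1.12 ± 0.13, both with an adjusted p of 0.0559. The 7-day values of Mir377 were under the lower quartiles of their arrays. Mir377 passed the threshold at 0.05 when the 2 control arrays joined the estimate of spread, and Mir453 once the dimmest 30% of genes were removed. Mir493 and Mir323 differed by -1.65 ± 0.29 and -1.33 ± 0.31. Whether such probe sets measured a hairpin or the long RNA around it cannot be told apart. The genes at the ends differed little: -0.17 ± 0.11 for Dlk1, -0.24 ± 0.10 for Meg3 and 0.15 ± 0.12 for Dio3. Leaving out each array kept 51 to 54 of the 55 lower and 21 to 28 without overlap. The median of the region ran from -0.49 without 3-day replicate 3 to -0.31 without 3-day replicate 2.

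**Figure D3:**
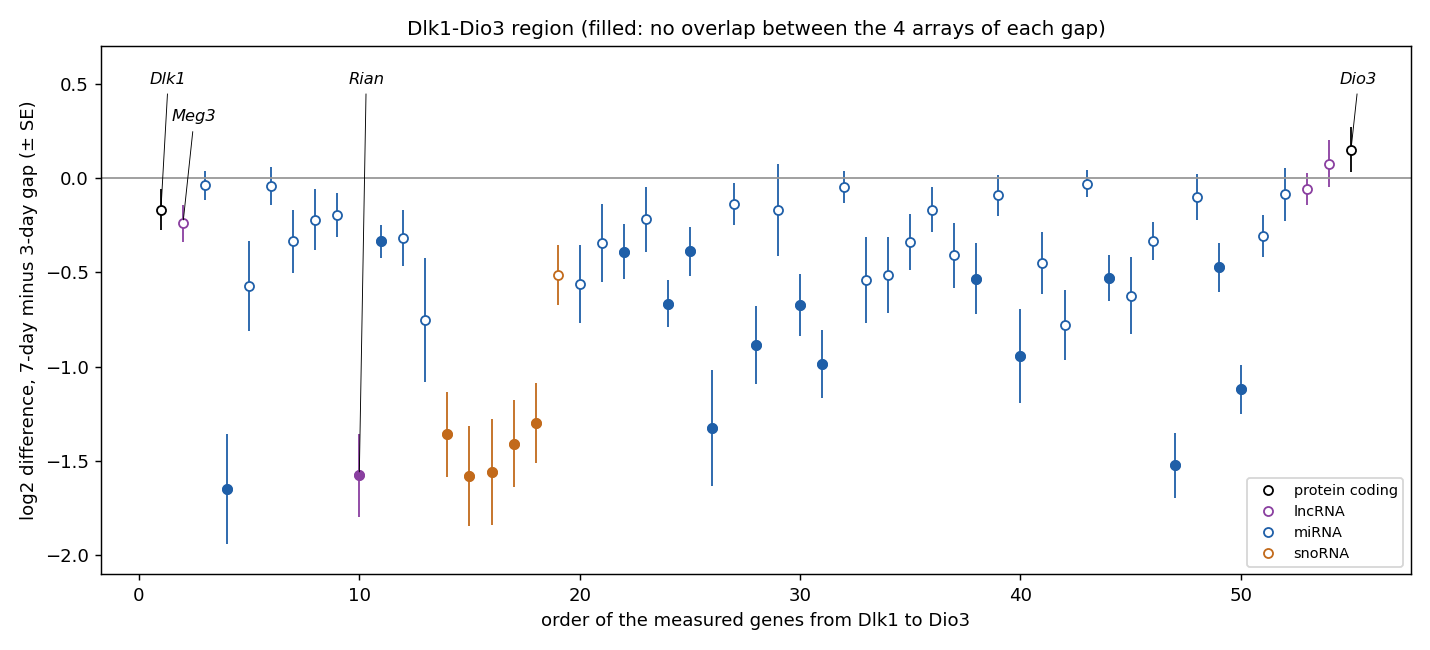
Log2 difference (7-day minus 3-day, with its SE) of the 55 measured genes between Dlk1 and Dio3, in RefSeq order and without scale for distance, coloured by RNA class. Of the 55 points 53 lie below 0; Dlk1 (-0.17) and Dio3 (0.15) at the ends lie near 0, and Rian lies at -1.58.

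Imprinted genes as a list, fixed across the genome and including Rian, Meg3 and Dlk1, were 21 of 29 lower with a median of -0.14, and 6 did not overlap. Zim1 read 6.75, 6.56, 7.08 and 6.61 at 3 days and 5.76, 6.13, 6.24 and 5.75 at 7 days, a difference of -0.78 ± 0.15 (adjusted p 0.183). Peg3, its neighbour and a zinc finger gene of growth control, differed by -0.64 ± 0.16. Grb10, an adaptor that dampens insulin receptor signalling, differed by -0.47 ± 0.12. Without 3-day replicate 3 the number without overlap was 10.

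MicroRNA genes outside that region were more often higher than lower at 7 days. Of 435 outside it, 268 were higher and 167 lower, with a median of 0.05; 34 were higher and 8 lower without overlap. All 43 inside it were lower, 15 of them without overlap. The let-7 precursors, microRNAs associated with differentiated cells, and the miR-200 family, which marks epithelium, were listed after their values were seen. Of 11 let-7 genes 8 were higher, 4 of them without overlap, with a median of 0.53. Mirlet7c-2 read 6.37, 6.62, 5.94 and 6.17 against 7.15, 7.44, 7.69 and 6.97, and Mirlet7i read 6.11, 6.18, 5.99 and 6.39 against 6.93, 6.82, 6.70 and 6.63. Their differences were 1.04 ± 0.18 and 0.60 ± 0.10, each with an adjusted p of 0.135. All 4 miR-200 genes were higher, 2 without overlap: Mir200b by 0.73 ± 0.11 and Mir200a by 0.53 ± 0.09. Whether members of the let-7 or miR-200 families share transcript or probe signal was not tested, so they may not be separate observations. Mir15b, from a family that restrains cell cycle genes, read 3.43 to 3.65 at 3 days and 4.16 to 4.66 at 7 days (0.84 ± 0.11, adjusted p 0.08). Its 3-day values were under the lower quartiles of their arrays. Without 3-day replicate 4, 8 let-7 genes did not overlap.

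Genes of natural killer cells were mostly lower at 7 days. Of 11 natural killer genes 10 were lower, with a median of -0.24 and 3 without overlap, and the list mean ranged from 5.04 to 5.34 at 3 days and from 4.69 to 4.95 at 7 days. Beside Gzmc the latter were Klrd1 (CD94), at 6.27 to 6.67 against 6.02 to 6.15 with a difference of -0.34 ± 0.09, and Ncr1, the natural killer receptor NKp46, at 5.19 to 5.56 against 4.75 to 5.15 with a difference of -0.40 ± 0.11. Gzmb differed by -0.40 ± 0.11 with overlap and low values, 3.56 to 4.30. Gzmc had by far the largest difference of the list, -1.93, against a lower quartile of -0.37 among its members. The separation of the list means between the groups rests on Gzmc. Of 9 granzymes, a family of close copies listed after their values were seen, 6 were higher and 3 lower, with a median of 0.02. T cell genes were split, 11 higher and 12 lower of 23, with a median of -0.01 that ran from -0.09 to 0.09 when each array was left out. Without 3-day replicate 1, 5 natural killer genes did not overlap.

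Among 52 chemokines and receptors 34 were lower, with a median of -0.08, and 8 were lower and 1 higher without overlap, the latter Ccl20. Cxcl10 and Cxcl11, ligands of CXCR3 induced by interferon-gamma, differed by -0.87 ± 0.21 and -0.64 ± 0.16. RefSeq lists mouse Cxcl11 as a transcribed pseudogene, and whether that holds in BALB/c mice was not examined. Cxcl10 read 6.43, 6.85, 6.60 and 7.16 against 5.33, 5.99, 5.90 and 6.34. Cxcl9, the third ligand, differed by -1.21 ± 0.36, but 7-day replicate 4 at 7.38 lay within the 3-day range of 7.24 to 7.74. The eosinophil receptor Ccr3 differed by -0.95 ± 0.22, Xcl1, which draws cross-presenting dendritic cells, by -0.83 ± 0.20, and Cx3cr1, the fractalkine receptor, by -0.43 ± 0.09, each without overlap. Xcr1, the receptor of Xcl1, differed by -0.51 ± 0.15. The median of the list was -0.13 without 3-day replicate 1 and -0.04 without 7-day replicate 1. Of 24 interferon-gamma chemokines and GTPases 19 were lower, with a median of -0.12 and 3 without overlap. That median was -0.22 without 7-day replicate 4, with 6 without overlap, -0.07 without 7-day replicate 1 and -0.06 without 7-day replicate 3.

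The list of type I interferon-stimulated genes depended on 3-day replicate 2 for its sign, and the macrophage list for part of its size. Of 35 interferon-stimulated genes 33 were lower at 7 days, with a median of -0.17 but none without overlap. Their mean was 8.12 in 3-day replicate 2 against 6.97 to 7.43 in the other 3-day arrays and 7.09 to 7.50 at 7 days. Without that array 16 of 35 were lower and the median was 0.03. Leaving out other arrays gave medians from -0.34 (without 3-day replicate 3, where all 35 were lower and 6 did not overlap) to -0.11 (without 7-day replicate 3). Irf7, a regulator of interferon production, read 7.94, 8.97, 7.67 and 8.08 against 8.22, 7.83, 7.88 and 8.05. Its difference of -0.17 ± 0.24 turned to 0.09 without 3-day replicate 2. Macrophage genes were 25 of 31 lower, with a median of -0.33 and none without overlap. Their mean was 9.24 in 3-day replicate 2 against 8.35 to 8.70 in the rest of its group and 8.27 to 8.75 at 7 days. The median was -0.17 without that array, with 21 of 31 lower, and -0.46 without 3-day replicate 3, where 8 did not overlap. The complement gene C1qb differed by -0.53 ± 0.23 and Adgre1, the F4/80 antigen, by -0.38 ± 0.16, both with overlap.

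**Figure D4:**
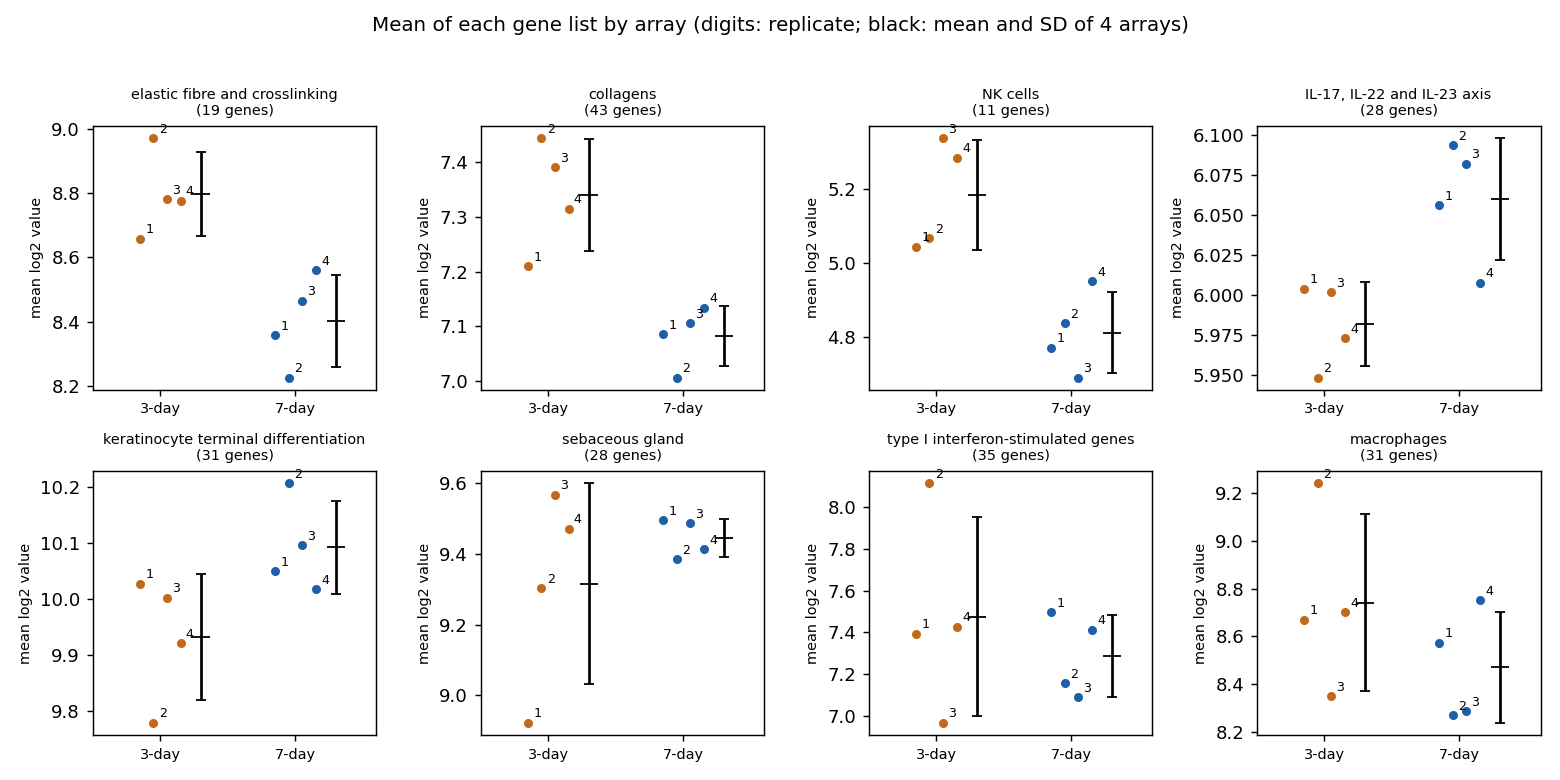
Mean log2 value of 8 gene lists on each of the 8 PUVA arrays, with the replicate number at each point and the mean and SD of each group in black. Elastic fibre and collagen means are lower at 7 days without overlap. Natural killer means are also lower without overlap, a separation that rests on Gzmc. IL-17 axis means are barely separate, with the highest 3-day mean at 6.004 and the lowest 7-day mean at 6.008. 3-day replicate 2 alone reaches 8.12 for interferon-stimulated genes and 9.24 for macrophages.

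Epidermal genes lay slightly higher at 7 days. Of 31 genes of keratinocyte terminal differentiation 26 were higher, with a median of 0.19; 1 was higher without overlap, against 2.95% of all genes. That gene was Ivl, involucrin, a scaffold of the cornified envelope, at 9.48, 9.08, 9.34 and 9.43 against 9.71, 9.83, 9.74 and 9.73. Its difference was 0.42 ± 0.09 (adjusted p 0.251). Flg2, a filaggrin-like protein, differed by 0.25 ± 0.08 and Dsg1a, a desmosomal cadherin, by 0.24 ± 0.09. Casp14, the caspase of cornification, differed by 0.36 ± 0.16, all 3 with overlap. 3-day replicate 1 lay within the 7-day range for Flg2, Dsg1a and Casp14, and without it 15 of 31 did not overlap. The median was 0.12 without 3-day replicate 2, and 2 did not overlap without 3-day replicate 3 and 3 without 7-day replicate 4.

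Basal and barrier genes showed smaller differences. Of 17 basal keratinocyte and hemidesmosome genes 13 were higher, with a median of 0.10 and 3 without overlap. The integrin Itga3 differed by 0.26 ± 0.07 and the laminin chain Lamb3 by 0.26 ± 0.10. Of 19 barrier lipid genes 13 were higher, with a median of 0.08; Abca12, the lipid transporter of lamellar granules, differed by 0.31 ± 0.10 with overlap. Of 35 genes of activated epidermis 19 were higher and 16 lower, with a median of 0.02. Within that list the beta-defensins Defb14 and Defb4 were higher without overlap, by 0.62 ± 0.13 and 0.39 ± 0.09. Krt6b, a keratin of stressed epidermis, differed by -0.73 ± 0.21, while Krt6a and Krt16 differed by 0.15 ± 0.37 and 0.17 ± 0.22. For Krt6a the 3-day arrays alone ran from 7.99 to 10.06. The barrier median ran from 0.05 without 3-day replicate 2 to 0.16 without 7-day replicate 4, and 6 did not overlap without 3-day replicate 1. That of the basal list ran from 0.06 without 7-day replicate 3 to 0.15 without 7-day replicate 1, and 5 did not overlap without 3-day replicate 3 or 7-day replicate 1 and 6 without 7-day replicate 4. In activated epidermis 5 did not overlap without 3-day replicate 3, and the median ran from -0.02 to 0.09.

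Genes of the IL-17 axis, the cytokine pathway central to psoriasis, differed little in size. Of 28 genes 21 were higher, with a median of 0.06, and 3 were higher without overlap. The list mean ran from 5.948 to 6.004 at 3 days and from 6.008 to 6.094 at 7 days, so the groups were barely separate. Only 16 of the 28 genes had a mean of at least 5. The cytokine genes themselves lay close: Il17a differed by 0.03 ± 0.12, Il17f by 0.18 ± 0.10, Il22 by -0.02 ± 0.07 and Il23a by 0.06 ± 0.10. Il17a and Il22 lay below the lower quartile on every array, Il22 at 1.61 to 1.85. Ccl20, the ligand that recruits CCR6 cells, read 5.41, 5.23, 5.27 and 5.46 against 5.69, 5.59, 6.27 and 5.52, a difference of 0.42 ± 0.15. Rora, a nuclear receptor, and Traf3ip2, the IL-17 receptor adaptor, each differed by 0.20, with SE 0.07 and 0.08. Il22ra1, the IL-22 receptor chain of keratinocytes, differed by 0.37 ± 0.11 with overlap. The median was 0.19 without the lowest 30% of genes, 0.03 without 7-day replicate 2 and 0.09 without 7-day replicate 1, and 6 did not overlap without 3-day replicate 1. In the IL-1 family 13 of 20 were higher, with a median of 0.10 and none higher without overlap. Il1a and Il1f6 (IL-36 alpha), cytokines made by keratinocytes, differed by 0.46 ± 0.16 and 0.52 ± 0.16. Il18rap, an IL-18 receptor chain found on lymphocytes, was lower without overlap at 5.71 to 6.05 against 5.04 to 5.60, a difference of -0.60 ± 0.12. The IL-1 family median was 0.19 without 3-day replicate 1 and 0.16 without 7-day replicate 4, with 5 and 4 higher without overlap.

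Lipid genes gave no uniform picture apart from Awat2. Of 28 sebaceous gland genes 21 were higher, with a median of 0.15 and 2 without overlap, Awat2 and Pparg, the nuclear receptor of sebocyte and fat cell differentiation (0.24 ± 0.07). The list mean was 8.92 in 3-day replicate 1 against 9.30 to 9.57 in its group and 9.39 to 9.50 at 7 days. Without that array the median was 0.00, with 15 higher and 13 lower, and 5 were higher and 3 lower without overlap; without 3-day replicate 3 the median was 0.23 and 6 were higher without overlap, and without 7-day replicate 4 the latter was 5. Of 23 adipocyte genes 17 were higher, with a median of 0.08 and 3 without overlap. These were Pparg, Agpat2, an enzyme of triglyceride assembly (0.31 ± 0.08), and Retn, the adipokine resistin (0.58 ± 0.13), which read 11.02, 10.90, 10.37 and 10.67 against 11.28, 11.39, 11.37 and 11.24. The adipocyte median was 0.18 without 3-day replicate 3 and 0.05 without 3-day replicate 4, and 5 did not overlap without 3-day replicate 1 or 7-day replicate 4. Of 19 cholesterol synthesis genes 14 were higher, with a median of 0.07; beside Sc5d, Dhcr7, which acts in the last steps, differed by 0.32 ± 0.10 with overlap. Leaving out each array gave cholesterol medians from 0.04 without 7-day replicate 1 to 0.12 without 3-day replicate 4, and 4 did not overlap without 7-day replicate 4.

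Hair, nerve and mast cell genes varied in their own ways. Of 14 inner root sheath genes 8 were higher and 6 lower, with a median of 0.01 and none without overlap, and none passed an unadjusted p of 0.05; the median ran from -0.06 without 3-day replicate 1 to 0.12 without 3-day replicate 3. Krt71 and Krt27, keratins of that sheath, differed by -0.10 ± 0.32 and 0.07 ± 0.17, and trichohyalin (Tchh) by 0.04 ± 0.23. Of 20 Schwann cell genes 16 were lower, with a median of -0.16 and 5 without overlap. Pmp22, a myelin protein, read 10.71, 10.89, 10.72 and 10.79 against 10.58, 10.41, 10.51 and 10.54, a difference of -0.27 ± 0.07. Without 7-day replicate 3, 9 Schwann cell genes did not overlap. Of 21 mast cell genes 16 were lower, with a median of -0.15 and 1 without overlap, Mrgprb1 (-0.37 ± 0.09); Cpa3, the mast cell carboxypeptidase, differed by -0.38 ± 0.12. The mast cell number without overlap was 5 without 3-day replicate 2 and 7 without 7-day replicate 3, and the median was -0.09 without 3-day replicate 3.

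Cell cycle genes were mostly lower at 7 days, and lists of damage and senescence genes lay on both sides. Of 37 DNA replication genes 33 were lower, with a median of -0.13 and 1 without overlap, Cdt1, a licensing factor, at 6.82 to 7.07 against 6.57 to 6.81 (-0.26 ± 0.08). That count was 9 without 3-day replicate 1 or without 7-day replicate 1, 4 without 3-day replicate 3, 3 without 3-day replicate 4 and 2 without 7-day replicate 3, and the median was -0.08 without 3-day replicate 2 or without 7-day replicate 4. Of 34 mitosis genes 27 were lower, with a median of -0.08 and none without overlap (5 without 7-day replicate 2), while Mki67, the proliferation antigen, differed by 0.05 ± 0.07. The p53 targets divided evenly, 16 and 16 of 32, with a median of -0.01. Cdkn1a, the p21 inhibitor, differed by 0.03 ± 0.10. Of 18 senescence cell cycle inhibitors and lamin genes 14 were higher, with a median of 0.07 (0.03 without 3-day replicate 4). Cdkn2a, the p16 and p19 locus, read 5.89, 5.32, 5.88 and 5.89 against 6.0, 5.90, 5.96 and 5.90; the groups did not overlap, but the gap between them was narrow and the difference was 0.20 ± 0.13. Lmnb1, lamin B1, whose loss accompanies senescence, differed by 0.07 ± 0.10. Secretory factors of senescence were 31 of 44 lower, with a median of -0.15, and the members with the smallest p were the matrix genes Timp1 and Mmp13. That median was -0.07 without 7-day replicate 2, and 8 were lower without overlap without 3-day replicate 1 against 2 on all arrays.

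**Figure D5:**
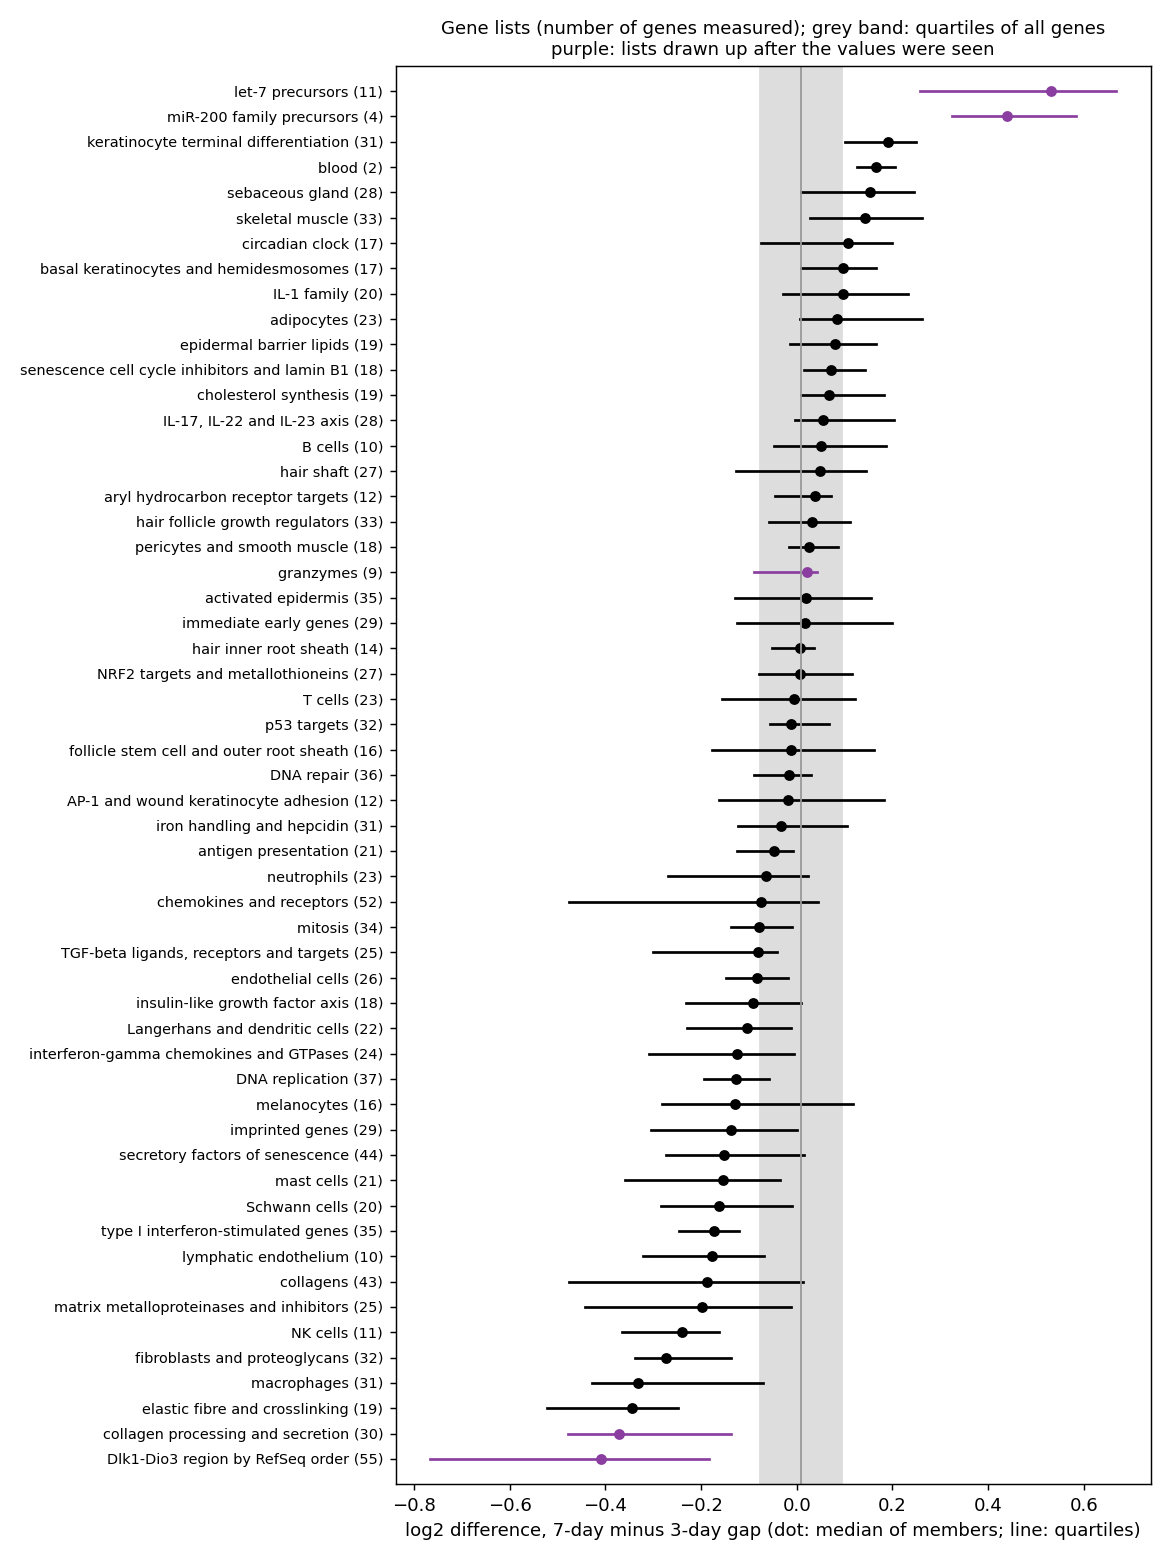
Median log2 difference (7-day minus 3-day) of each gene list as a dot with the quartiles of its members as a line, the number of measured genes in brackets, and the quartiles of all genes (-0.08 and 0.09) as a grey band. Elastic fibre genes (-0.34) and fibroblast genes (-0.27) lie below the band and keratinocyte terminal differentiation (0.19) above it; purple lists were drawn up after the values were seen.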

How the data were processed

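Total RNA from mouse skin was labelled with biotin and hybridised to Affymetrix mouse gene arrays, per the labels' protocols. The authors deposited 1 table of log2 values, 1 per probe set and array; the log base is inferred from the range of 1.08 to 13.46, and how the values were normalized is not given in the sources used here. No scanner files were used. Of 41345 probe sets, 23521 had 1 gene symbol in the platform annotation, 1814 had several and 16010 none. Each of 22180 genes was represented by its brightest probe set, by mean over the 8 arrays, of which 21994 matched RefSeq by Entrez number.

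Means of 4 and 4 arrays were compared with limma 3.58.1 (lmFit and eBayes, 6 residual degrees of freedom) in R 4.3.3, two-sided, with Benjamini-Hochberg adjustment over all genes. Python 3.11.15 handled tables and plots. On simulated data with 200 of 22180 genes changed in this comparison, 87% of changes of 1 log2 unit and 99% of changes of 2 log2 units were recovered, with 8 false calls. The changed genes were drawn at random and the noise independently, so these rates need not hold for the real arrays. There, 6 genes were higher and 13 lower by more than 1 log2 unit without overlap, and Hamp alone passed. The number of arrays limits the precision.

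Named genes were up to 10 in each direction, filled by smallest p without overlap where fewer passed; up to 3 of smallest p in each list; and a fixed set. Members and the 50 gene lists (1118 of 1227 entries measured) were chosen with earlier results of these data known, so lists are described by counts and medians without a test. A further 5 lists, and some genes named beside the rule, were chosen after their values were seen: genes named without being among the 3 of smallest p in a list, and the microRNAs and small nucleolar RNAs. Alternatives were fits with all 10 arrays, without the lowest 30% of genes, with the mean of probe sets, quantile normalization, median centring, eBayes with trend and robust settings, array weights, all probe sets, other thresholds, members in 1 list, members with a mean of at least 5, and each array left out.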

Additional observations from a re-analysis of the deposited data

Results flagged for a closer look

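In 28 of 440 groups of 4 arrays, 1 array lay far from the other 3 relative to the range of its group; chance gives about 1 in 20. Among genes at 3 days, these were Hamp in replicate 1 (4.09, others 3.41 to 3.44), Sparc in replicate 1 (11.47, others 11.84 to 11.86), C1qtnf6 in replicate 2 (7.32, others 6.85 to 6.92), Timp1 in replicate 2 (6.31, others 5.57 to 5.67), Itga3 in replicate 2 (8.42, others 8.59 to 8.62), Krt6b in replicate 2 (6.0, others 6.88 to 7.01) and Cdkn2a in replicate 2 (5.32, others 5.88 to 5.89). Further 3-day values were Grb10 in replicate 3 (8.52, others 8.89 to 8.94), the natural killer receptor Ncr1 in replicate 3 (5.56, others 5.19 to 5.23), Col4a6 in replicate 4 (4.92, others 5.01 to 5.02) and Klrk1, which encodes NKG2D, in replicate 4 (5.74, others 5.31 to 5.37).

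At 7 days they were Vcan in replicate 1 (8.19, others 7.76 to 7.80), Col6a2 in replicate 2 (8.86, others 9.07 to 9.10), Mmp23 in replicate 2 (6.80, others 7.27 to 7.36), Krt27 in replicate 2 (4.54, others 4.15 to 4.18), Fkbp7, a chaperone of the secretory pathway, in replicate 2 (8.72, others 8.92 to 8.94) and Npas2 in replicate 3 (8.85, others 8.55 to 8.59). In 7-day replicate 4 they were Eln (8.57, others 8.32 to 8.35), Mybpc1 (11.42, others 11.61 to 11.63), Mir200a (6.65, others 6.94 to 7.00) and Mirlet7a-1 (6.64, others 7.06 to 7.13).

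Among list means at 3 days, those of TGF-beta genes in replicate 1 (8.85, others 9.04 to 9.06), clock genes in replicate 2 (8.24, others 8.41 to 8.44), the inner root sheath in replicate 3 (5.78, others 5.41 to 5.44) and AP-1 genes in replicate 3 (7.50, others 7.35 to 7.37) stood apart. At 7 days those of neutrophils in replicate 1 (5.34, others 5.22 to 5.23), lymphatic endothelium in replicate 2 (6.91, others 7.20 to 7.25) and mast cells in replicate 3 (5.93, others 5.74 to 5.76) did.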

How the results depend on the processing

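The count of genes past the adjusted threshold moved with most choices, and the cause was not tested. Against 1 higher and 0 lower, it was 2 and 1 without the lowest 30% of genes, 0 higher after quantile normalization, 3 and 3 with array weights, 1 lower with all 10 arrays and 1 lower with trend and robust eBayes settings. It was 0 higher over all probe sets, 0 higher at a threshold of 0.01, and 3 higher and 2 lower at 0.1. Leaving out each array gave 0 to 7 higher and 0 to 15 lower. At an unadjusted p under 0.05 it gave 820 to 1577 genes higher and 644 to 1250 lower. The Hamp difference was 3.59 (adjusted p 0.053) after quantile normalization and 3.31 to 3.92 (adjusted p 0.00848 to 0.175) with each array left out. The sign of the median held in every setting for 40 of 55 lists. Under other settings 914 list medians moved by less than the pooled SD of the list means between arrays, and 15 moved by more. Leaving out 1 of 4 arrays seldom moves a mean that far, so these counts say little about robustness. The type I interferon median, which turned from -0.17 to 0.03 without 3-day replicate 2, was among the 914. Without the lowest 30% of genes the IL-17 axis had a median of 0.19 and B cells 0.20. Among members with a mean of at least 5, a setting chosen after seeing the data, medians were 0.20 for the IL-17 axis, 0.20 for B cells, -0.31 for mast cells, 0.067 for AP-1 genes and -0.94 for granzymes. The last rests on 2 of 9 members, Gzmc and Gzmm, and without the lowest 30% of genes the granzyme median was 0.043. With each array left out, medians ran from -0.16 to -0.10 for imprinted genes, 0.032 to 0.089 for the IL-17 axis, 0.067 to 0.19 for the IL-1 family, -0.022 to 0.11 for B cells, 0.034 to 0.071 for senescence inhibitors, -0.057 to 0.043 for NRF2 targets and -0.093 to 0.081 for AP-1 genes. Small gene differences turned sign: Usf2 ran from -0.0299 to 0.11, Krt6a from -0.13 to 0.56, Krt16 from -0.027 to 0.32, Krt71 from -0.25 to 0.18, Krt27 from -0.055 to 0.22, Tchh from -0.16 to 0.27, Irf7 from -0.34 to 0.094, Il17a from -0.075 to 0.11, Il22 from -0.071 to 0.011 (0.0072 after quantile normalization), Il23a from -0.026 to 0.11 and Cdkn1a from -0.053 to 0.084. Values below the lower quartiles, such as those of Hamp at 3 days, are limited by low signal. No paired analysis was possible because the replicate numbers in the labels differ between the groups and pair nothing.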

Other observations

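Among genes whose difference exceeded 1 log2 unit, 6 were higher and 13 lower at 7 days without overlap between the gaps. Those not described above were chosen here after their values were seen. Mir23a, a microRNA gene, read 8.87, 7.85, 7.59 and 8.17 at 3 days and 9.12, 9.37, 9.90 and 8.91 at 7 days, a difference of 1.20 ± 0.28 (limma adjusted p 0.251). Bcat1, the cytosolic enzyme that starts the breakdown of branched-chain amino acids, read 6.13, 7.10, 6.22 and 6.45 against 5.97, 5.09, 5.50 and 5.29, a difference of -1.01 ± 0.24. Serpinb6d, a serine protease inhibitor gene, read 6.24, 6.23, 7.49 and 7.19 against 5.95, 5.87, 4.95 and 5.37, a difference of -1.25 ± 0.32. In Serpinb6d the smallest separation lay between 3-day replicate 2 and 7-day replicate 1.

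Clock genes, which set daily rhythms, were 11 of 17 higher at 7 days, with a median of 0.11 and 3 without overlap. Npas2, a partner of the core activator, read 8.29, 8.31, 8.35 and 8.41 against 8.55, 8.59, 8.85 and 8.55, a difference of 0.30 ± 0.08. Cry1, a repressor of the loop, differed by 0.31 ± 0.10 and Bhlhe41, another repressor, by 0.53 ± 0.18, both with overlap. The median was 0.03 without 3-day replicate 2 and 0.17 without 3-day replicate 1, and 6 did not overlap without 7-day replicate 1. The hour of collection is not in the labels. Long noncoding RNAs were more often higher than lower, 1178 against 748 of 1926, with a median of 0.03. Of them 53 were higher and 15 lower without overlap. Over all genes 53.2% were higher, and 2.95% were higher and 2.28% lower without overlap. The number higher without overlap thus lay near the share of all genes. The number lower without overlap, 15 of 1926, lay below the 2.28% of all genes.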
